A study of Mus musculus with 12 samples.

Results

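Transcript levels of 9 genes of the FoxO pathway were examined in mouse mammary tumourspheres. The genes were chosen by symbol from the table of raw gene counts and comprised 3 FoxO transcription factors (Foxo1, Foxo3, Foxo4) and 6 genes linked to FoxO activity (Sesn1, Sesn3, Pik3ip1, Ccng2, Txnip, Rictor). All 9 were found among the 55573 genes of the table, and all 9 were among the 13836 genes with enough counts to test. The 12 libraries came from 3 lines of spindloid tumour cells (A1005, A1129, A1471). These were established from independent tumours of MMTV-Metmt;Trp53fl/+;Cre mice. In these mice the MMTV promoter drives an activated Met receptor in the mammary gland, 1 conditional copy of Trp53 was floxed, and Cre was present. The study describes loss of Trp53 and amplification of the endogenous Met locus in this model. Whether a line still expressed the transgene was not examined here. Tumourspheres of every line received DMSO (the vehicle), Crizotinib, which inhibits the Met kinase, PD173074, which inhibits FGF receptor kinases, or the combination of both drugs for 24 h, at 1 µM of each drug. Each treatment thus had 3 libraries, 1 per line, and the controls were of the same lines and genotype as the treated cells. The medium of the study contained insulin, EGF and bFGF, so ligands of other receptors were present in every group. No library of normal mammary cells was analysed here.

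FoxO factors are forkhead transcription factors that act downstream of insulin and growth factor receptors. When PI3K is active, its effector AKT phosphorylates FoxO proteins, which then leave the nucleus. When PI3K or AKT activity falls, FoxO proteins return to the nucleus and raise genes for cell cycle arrest, autophagy, stress defence and feedback on PI3K signalling. RNA levels report neither the phosphorylation nor the location of FoxO proteins.

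Total counts per library were 13031492 to 17750476, and the lowest count of any of the 9 genes in any library was 98, for Pik3ip1. Levels are given as CPM, counts scaled to a common library total after TMM normalization between libraries. Mesenchymal markers, which define spindloid cells, were abundant as a sum (3364 to 9768 CPM over 9 markers). Not all of the 9 were abundant: Cdh2 had 0 to 6 counts per library and Snai2 had 0 to 32. The 10 epithelial markers summed to 7.54 to 53.4 CPM, with Krt5, Cldn7 and Esrp1 at 0 in all libraries. The 7 leukocyte markers summed to 4.47 to 42.0 CPM, the 5 adipocyte markers to 1.74 to 65.0 CPM and the 5 endothelial markers to 0.345 to 3.09 CPM. The adipocyte sum was almost all Fabp4 (23 to 984 counts per library), the other adipocyte markers having 0 or 1 counts. Of the leukocyte markers, Ptprc had 174 to 339 counts in A1005 and 0 to 2 in A1129 and A1471. Summed endothelial markers were 0.345 to 0.859 CPM with DMSO and 1.13 to 3.09 CPM with the combination. These sums rest on few counts. Vwf had 6, 1 and 2 counts with DMSO in A1005, A1129 and A1471, and 21, 6 and 39 with the combination. With the combination, Cdh5 had 0 counts in each line and Tek had 0 to 2. In RNA from whole tumourspheres, fewer cells of a type and less RNA per cell cannot be told apart.

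In mm10 coordinates (GENCODE annotation of GRCm38), the protein-coding genes lay at chr3:52268336-52353221 (Foxo1), chr10:42181841-42276755 (Foxo3, minus strand), chrX:101254528-101260873 (Foxo4), chr10:41809935-41908424 (Sesn1), chr9:14275067-14333101 (Sesn3), chr11:3330401-3342971 (Pik3ip1), chr5:93267257-93276231 (Ccng2), chr3:96557957-96561883 (Txnip) and chr15:6708379-6800401 (Rictor). Of the members, 3 share exon bases with a gene on the opposite strand: Foxo1 with Gm20402 over 674 bases, Pik3ip1 with Gm12592 over 91 bases and Txnip with Gm15441 over 606 bases. Whether reads were counted by strand is not given in the sources used here. The opposite genes carried 25, 229 and 124 counts over all 12 libraries, against 6547, 5170 and 20110 counts of Foxo1, Pik3ip1 and Txnip.

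The forkhead core that FoxO proteins bind, GTAAACA, which reads TGTTTAC on the opposite strand, was searched on both strands in RefSeq promoter windows of GRCm38.p6, from 250 bases before to 50 bases after a start site. RefSeq windows were matched for 8 of the 9 genes (all but Foxo4), 9 windows in all. The core was present in 2 of these 9 windows, those of Txnip and Sesn1, and in 1199 of all 32851 windows (3.65%). The match in the Txnip window began 121 bases before the start site, at chr3:96557836-96557842, within an exon of Gm15441. The match in the Sesn1 window began 22 bases after the start site, at chr10:41810596-41810602, in an exon and untranslated part of Sesn1. The other Sesn1 window, chr10:41887189-41887488, did not hold the core. The E-box CACGTG, a palindrome bound by MondoA and Myc family factors, was present in 0 of the 9 windows and in 7.15% of all windows. Only these exact letters were searched, and sites with other letters would have been missed. The search therefore does not tell whether the Txnip window holds a MondoA site. A match is a description of letters and not evidence of binding. Both stretches that hold the core are shown because Sesn1 was higher with the combination in every line, whereas Txnip was not, with the core in capitals and the plus strand read 5′ to 3′. The Txnip stretch is the 250 bases before the start site, chr3:96557707-96557956, and the Sesn1 stretch is 30 bases, chr10:41810584-41810613.
Txnip: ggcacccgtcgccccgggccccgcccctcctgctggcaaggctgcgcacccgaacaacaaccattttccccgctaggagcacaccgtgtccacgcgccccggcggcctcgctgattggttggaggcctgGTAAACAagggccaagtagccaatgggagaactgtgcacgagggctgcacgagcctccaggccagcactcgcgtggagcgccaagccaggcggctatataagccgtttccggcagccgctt
Sesn1: agaaccttctacTGTTTACcagccttttgg

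Per kilobase of exon, Txnip was the most abundant of the 9 in DMSO, at 35.4 ± 15.5 CPM per kb (SD, n = 3 lines). Ccng2 (20.7 ± 2.80), Foxo3 (16.3 ± 2.22) and Foxo4 (14.2 ± 2.51 CPM per kb) followed. Sesn1 (6.45 ± 2.44), Sesn3 (5.59 ± 6.25), Rictor (3.73 ± 0.833), Foxo1 (3.48 ± 0.446) and Pik3ip1 (2.44 ± 0.695 CPM per kb) were the lowest. Neighbours in this order overlapped in their ranges over the lines, except Ccng2 with Foxo3 and Foxo4 with Sesn1. Foxo3 was thus the most abundant of the FoxO factors per length in DMSO, with a range of 13.8 to 18.1 CPM per kb that overlapped that of Foxo4 (11.6 to 16.5) and not that of Foxo1 (3.09 to 3.97). With the combination, the mean of Ccng2 was 32.7 ± 5.72 CPM per kb, within the ranges over lines of Txnip (16.2 to 39.7) and Foxo3 (19.1 to 39.7 CPM per kb), and Pik3ip1 reached 18.1 ± 9.68, beside 19.4 ± 15.95 for Sesn3 and 19.5 ± 7.83 for Foxo4.

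Combined Met and FGFR inhibition asks whether FoxO genes move when both receptors are blocked. Pik3ip1, which encodes an inhibitor of PI3K, rose 7.44-fold, and it was the only one of the 9 genes to pass an adjusted p of 0.05 in the comparison of the 4 treatments without regard to line (edgeR quasi-likelihood test). Over all genes tested, 14.4% passed, and 6.1% passed as higher. Because the 3 lines differed widely in their baseline levels, the same fit was repeated with the line as a block. With this block 7 of the 9 genes passed, all higher (Foxo1, Foxo3, Foxo4, Sesn1, Sesn3, Pik3ip1, Ccng2), whereas 54.8% of all genes tested passed and 28.6% passed as higher. DESeq2 without the block called 5 of the 9 (Foxo1, Foxo3, Sesn1, Pik3ip1, Ccng2) and 21.9% of all genes. In the blocked fit, 7 of the 9 passed without A1005 (50.3% of all genes), 4 without A1129 (40.8%) and 3 without A1471 (36.8%), and Sesn1, Sesn3 and Pik3ip1 were among them each time. The median log2 fold change of the 9 genes was 0.66, and that of all genes tested was 0.02. The libraries of the combination lay above all those of DMSO for 5 of the 9 genes (Foxo1, Foxo3, Sesn1, Pik3ip1, Ccng2) and below them for 0, while 29.9% of all genes tested showed no overlap in either direction.

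**Figure D1:**
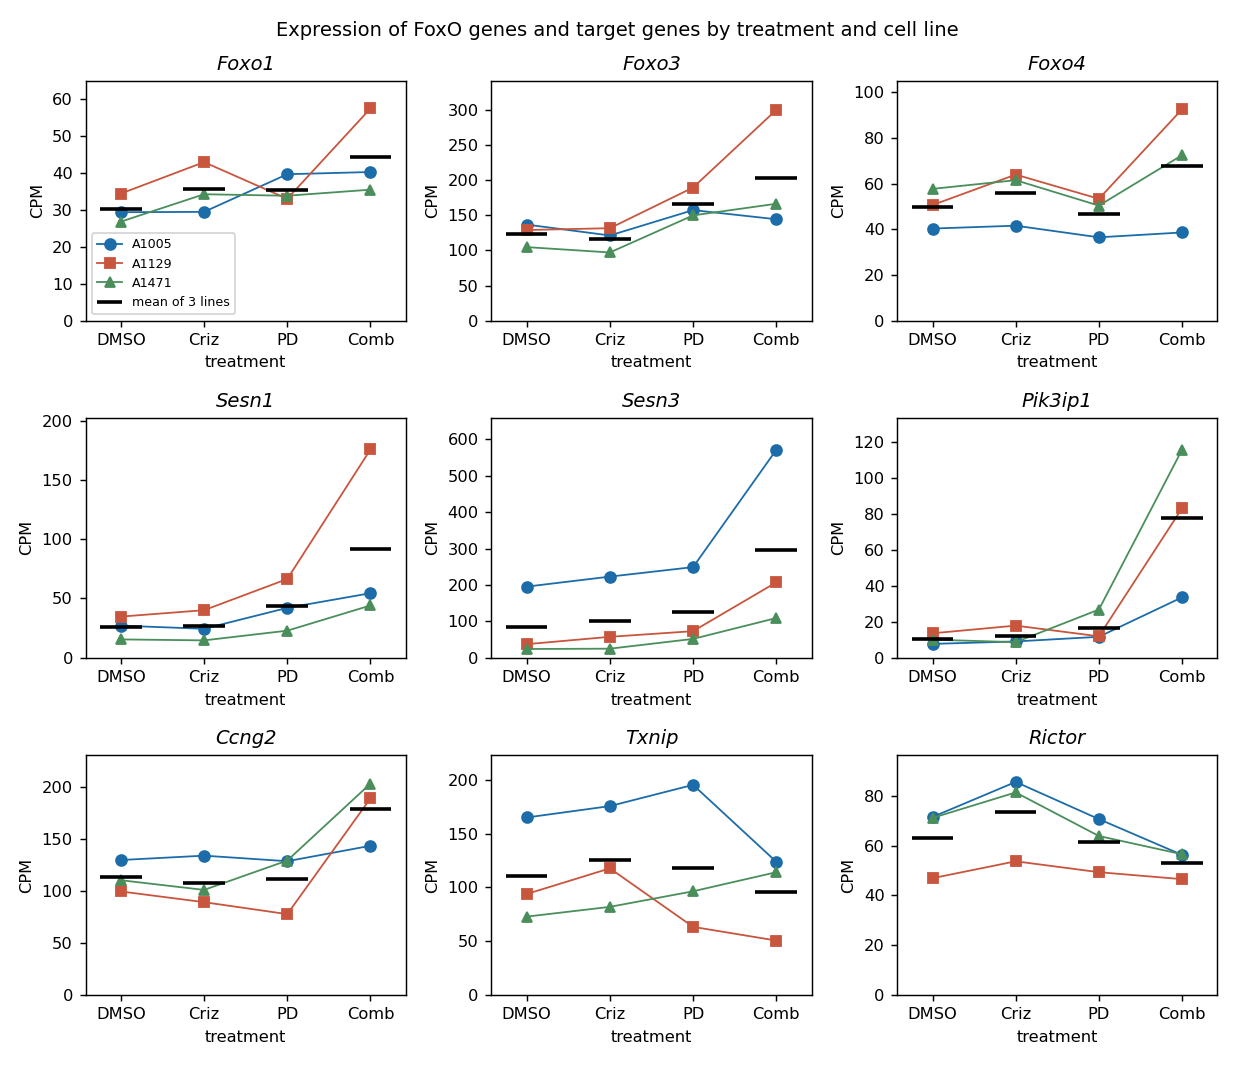
Level of each gene in CPM (linear axis from 0) under DMSO, Crizotinib (Criz), PD173074 (PD) and the combination (Comb). Points are single libraries joined within a cell line and black bars are means of 3 lines, and Pik3ip1 in the combination (33.6 to 116 CPM) stands above its DMSO libraries (7.65 to 13.5 CPM) in all 3 lines.

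Pik3ip1 was measured at 7.65 CPM (A1005), 13.5 CPM (A1129) and 10.01 CPM (A1471) with DMSO. With the combination the same lines gave 33.6, 83.2 and 116 CPM. Every combination library lay above every library of the other 3 treatments, the next highest being A1471 with PD173074 at 26.8 CPM. The log2 fold change was 2.89 ± 0.54 (SE), with an adjusted p of 0.00722 in edgeR and of 0.000187 with the line as a block. Without A1129 or without A1471 the unblocked adjusted p was 0.0931 or 0.118, at log2 fold changes of 3.10 and 2.48, whereas in the blocked fit it stayed between 0.00143 and 0.00357 whichever line was left out.

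The sestrins are stress-induced proteins that restrain mTORC1, and Sesn1 and Sesn3 are established FoxO targets. Sesn1 was measured at 27.0, 34.7 and 15.4 CPM with DMSO in A1005, A1129 and A1471, and at 54.4, 176 and 44.1 CPM with the combination. All 3 combination libraries were above the 3 DMSO libraries, and A1129 was far above the other two. The log2 fold change of Sesn1 was 1.83 ± 0.62 (SE), with an adjusted p of 0.0804 without the block and of 0.00013 with it, at a blocked log2 fold change of 1.66 ± 0.21.

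Sesn3 differed more between lines than between treatments. It was measured at 195 CPM in A1005, 37.0 in A1129 and 23.8 in A1471 with DMSO, and at 571, 207 and 109 CPM with the combination. The groups overlapped, because A1005 with DMSO was above A1471 with the combination, yet the combination was the higher library within each line. The log2 fold change was 1.79 ± 1.08 (SE) without the block (adjusted p = 0.31) and 2.06 ± 0.19 with it (adjusted p = 2.27e-05). Sesn2, the other sestrin, was measured at 33.0 ± 4.03 CPM with DMSO and 24.3 ± 3.99 CPM with the combination (SD, n = 3). Its log2 fold change was -0.44, with an adjusted p of 0.173 in edgeR and of 0.0296 with the block.

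Among the FoxO factors, Foxo3 was measured at 137, 129 and 105 CPM in A1005, A1129 and A1471 with DMSO, and at 145, 301 and 167 CPM with the combination. The groups did not overlap, but in A1005 the levels with and without inhibitors were close to each other. Foxo3 had a log2 fold change of 0.72 ± 0.26 (SE), with an adjusted p of 0.101 without the block and of 0.00818 with it. Foxo1, the factor best known from insulin signalling, was measured at 29.4, 34.4 and 26.8 CPM with DMSO and at 40.2, 57.5 and 35.5 CPM with the combination. Its groups did not overlap, and its log2 fold change was 0.56 ± 0.22 (adjusted p = 0.123, and 0.0139 with the block). Foxo4 was measured at 40.3, 50.6 and 57.7 CPM with DMSO and at 38.6, 92.6 and 72.4 CPM with the combination. In A1005 the combination library of Foxo4 was the lower of the pair, and the log2 fold change over the lines was 0.45 ± 0.31 (adjusted p = 0.383, and 0.0442 with the block). With the block and without A1129, none of the 3 factors passed, and the same held without A1471 (edgeR quasi-likelihood test).

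Ccng2 encodes cyclin G2, an atypical cyclin found in arrested cells. It was measured at 130, 99.3 and 110 CPM with DMSO in A1005, A1129 and A1471 and at 143, 189 and 203 CPM with the combination. A1005 had the smallest gap, and the groups did not overlap. The log2 fold change was 0.66 ± 0.24 (SE), with an adjusted p of 0.100 without the block and of 0.0125 with it. The blocked adjusted p was 0.0831 without A1129 and 0.123 without A1471.

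Txnip encodes a thioredoxin-binding arrestin that limits glucose uptake and is under the control of the glucose sensor MondoA as well as of FoxO. It was measured at 165, 93.9 and 72.8 CPM with DMSO in A1005, A1129 and A1471, and at 124, 50.5 and 114 CPM with the combination. The lines went in different directions, with log2 changes of -0.41 (A1005), -0.89 (A1129) and 0.65 (A1471). The log2 fold change was -0.20 ± 0.50 (SE), with an adjusted p of 0.848 and, with the block, of 0.611. Leaving out A1005 or A1129 brought the log2 fold change to 0.00079 or 0.0072 without the block. Txnip passed in 0 of 15 other settings of this comparison.

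Rictor encodes the defining subunit of mTORC2, the kinase complex that phosphorylates AKT. It was measured at 71.5, 46.9 and 71.1 CPM with DMSO and at 56.3, 46.5 and 56.5 CPM with the combination. The combination library was the lower of the pair in each line, by a log2 change of only -0.01 in A1129. The log2 fold change was -0.25 ± 0.23 (SE), with an adjusted p of 0.535 and, with the block, of 0.0685. With the block and without A1129 the adjusted p was 0.041.

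**Figure D2:**
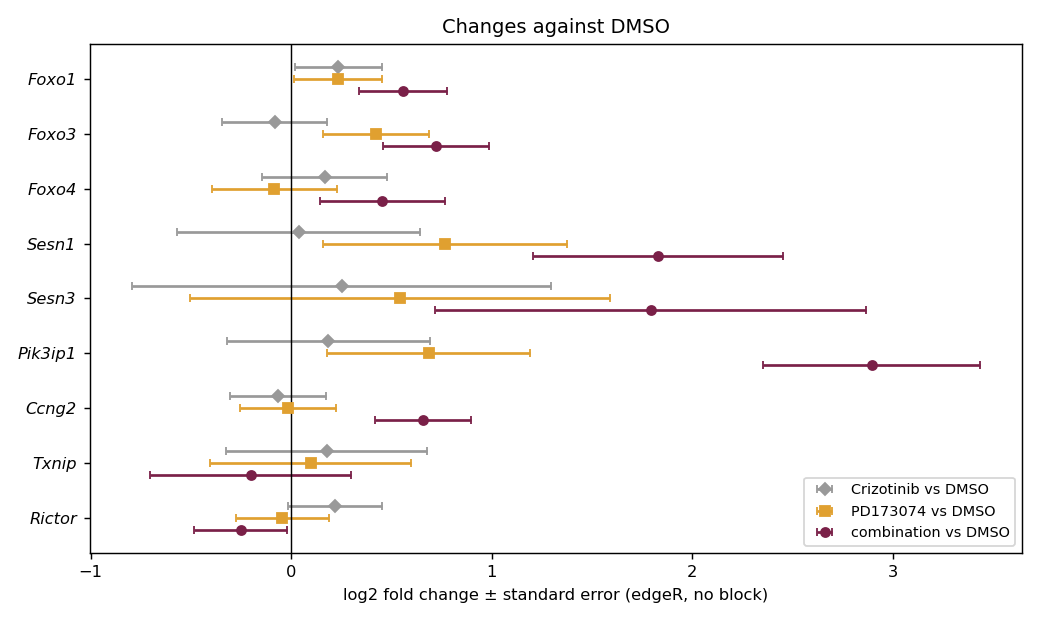
Log2 fold change against DMSO on the horizontal axis for each of the 9 genes, with bars of 1 standard error from the edgeR fit without a block over 12 libraries. The combination (circles) reaches 2.89 for Pik3ip1, while the values with Crizotinib (diamonds) lie between -0.08 and 0.25.

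Crizotinib alone addresses whether Met inhibition moves these genes. None of the 9 passed in edgeR with or without the block, where 0% of all genes passed in either fit, and 0 of the 9 had an unadjusted p under 0.05 without the block (0.13% of all genes) and 1 with it (Rictor, against 1.86% of all genes). DESeq2 called 0 of the 9 and 0.00723% of all genes, and the libraries separated for 0 of the 9, against 1.69% of all genes. The log2 fold changes were -0.08 for Foxo3, -0.07 for Ccng2, 0.04 for Sesn1, 0.17 for Foxo4, 0.18 for Txnip, 0.18 for Pik3ip1, 0.22 for Rictor, 0.24 for Foxo1 and 0.25 for Sesn3. The standard errors were 0.22 to 0.26 for Foxo1, Foxo3, Rictor and Ccng2, and 0.31 for Foxo4. They were larger for Txnip (0.50), Pik3ip1 (0.51), Sesn1 (0.61) and above all Sesn3 (1.045). Moderate changes of these last genes could not be seen in this fit. Rictor was higher with Crizotinib than with DMSO in every line, at 85.6, 53.7 and 81.4 CPM, with a blocked log2 fold change of 0.22 ± 0.10 (adjusted p = 1).

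PD173074 alone gave larger values for some of the genes, but none passed in edgeR, where 0% of all genes passed without the block and 2.14% with it. By unadjusted p under 0.05, 0 of the 9 passed without the block (2.22% of all genes) and 3 with it (15.7% of all genes). Sesn1 was measured at 42.1, 66.4 and 22.8 CPM in A1005, A1129 and A1471, higher than with DMSO in each line, at a log2 fold change of 0.77 ± 0.61 (SE) without the block (adjusted p = 1.0). Sesn3 was measured at 249, 72.8 and 51.5 CPM, also higher in each line, at a blocked log2 fold change of 0.80 ± 0.19. The blocked adjusted p was 0.117 for Sesn1 and 0.0627 for Sesn3. DESeq2 with the line as a block, a setting added after the data had been seen, called both genes, with adjusted p of 0.0464 and 0.00445, and 4.59% of all genes, whereas DESeq2 without it called 0 of the 9 and 0.123% of all genes. Foxo3 was measured at 158, 190 and 150 CPM and was the only one of the 9 whose PD173074 libraries all lay above the DMSO libraries, against 6.42% of all genes with no overlap in either direction. Its blocked log2 fold change was 0.42 ± 0.17 (adjusted p = 0.281). Pik3ip1 was measured at 11.6, 11.9 and 26.8 CPM, so that A1471 stood apart from the other lines.

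Adding PD173074 to Crizotinib was read from the combination against Crizotinib alone. Pik3ip1 rose, with a log2 fold change of 2.71 ± 0.54 (SE) and an adjusted p of 0.00996 (edgeR), and it was the only 1 of the 9 to pass without the block, against 13.2% of all genes (5.4% higher). With the block 6 of the 9 passed, against 53.4% of all genes (27.4% higher), and DESeq2 without it called 4 of the 9 and 21.2% of all genes. Of these, Sesn3 (1.77 ± 0.19), Sesn1 (1.67 ± 0.21), Pik3ip1 (2.59 ± 0.37), Foxo3 (0.77 ± 0.18) and Ccng2 (0.75 ± 0.19) were higher on the log2 scale, and Rictor was lower (-0.45 ± 0.10, adjusted p = 0.0033). The libraries did not overlap for Foxo3, Sesn1, Pik3ip1 and Ccng2, all higher, against 29.7% of all genes. Without the block, Pik3ip1 had an adjusted p of 0.0907 without A1129 and of 0.152 without A1471. With the block, 7, 5 and 4 of the 9 passed without A1005, A1129 or A1471, against 48.2%, 41.9% and 34.8% of all genes, and Sesn1, Sesn3 and Pik3ip1 were among them each time.

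Adding Crizotinib to PD173074 was read from the combination against PD173074 alone, which shares its combination libraries with the comparison above. Pik3ip1 had a log2 fold change of 2.21 ± 0.52 (SE) and passed narrowly (adjusted p = 0.0418, edgeR), against 4.77% of all genes (0.838% higher). It missed the threshold without a filter on low counts (0.0501), with only the 6 libraries compared (0.147), and when any line was left out (0.0592 to 0.415). With the block 5 of the 9 passed, all higher, against 39.8% of all genes (19.6% higher): Pik3ip1 (2.13 ± 0.36), Sesn3 (1.26 ± 0.19), Sesn1 (0.95 ± 0.20), Ccng2 (0.71 ± 0.19) and Foxo4 (0.49 ± 0.15) on the log2 scale. DESeq2 without the block called 2 of the 9 and 11.2% of all genes. Foxo3 differed between these groups by 0.26 ± 0.17 with the block (adjusted p = 0.259). Only Pik3ip1 and Ccng2 showed no overlap of libraries, both higher, against 21.6% of all genes. With the block, 5, 3 and 2 of the 9 passed without A1005, A1129 or A1471, against 34.9%, 17.1% and 21% of all genes, with Sesn3 and Pik3ip1 among them each time.

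Departure from additivity is the change with the combination minus the sum of the changes with each inhibitor, on the log2 scale. Without the block 0 of the 9 genes passed, against 0.918% of all genes, and 1 had an unadjusted p under 0.05, against 9.03% of all genes (edgeR quasi-likelihood test). DESeq2 and limma-voom without the block also called 0, each with 2 at an unadjusted p under 0.05, where 10.9% and 8.85% of all genes stood. By adjusted p, DESeq2 called 3.32% of all genes. With the block 3 passed, against 16.2% of all genes (5.46% above the sum). Pik3ip1 departed by 1.92 ± 0.51 (adjusted p = 0.0321), Sesn3 by 0.97 ± 0.26 (adjusted p = 0.0339) and Sesn1 by 0.96 ± 0.29 (adjusted p = 0.0475), all above the sum. Within A1005, A1129 and A1471 in turn, the departure of Pik3ip1 was 1.29, 2.40 and 2.32, and that of Sesn3 was 1.01, 0.88 and 1.03. With the block, 0 of the 9 passed without A1129 (3.6% of all genes) and 0 without A1471 (3.02%), while Sesn1, Sesn3 and Ccng2 passed without A1005 (12.4%).

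**Figure D3:**
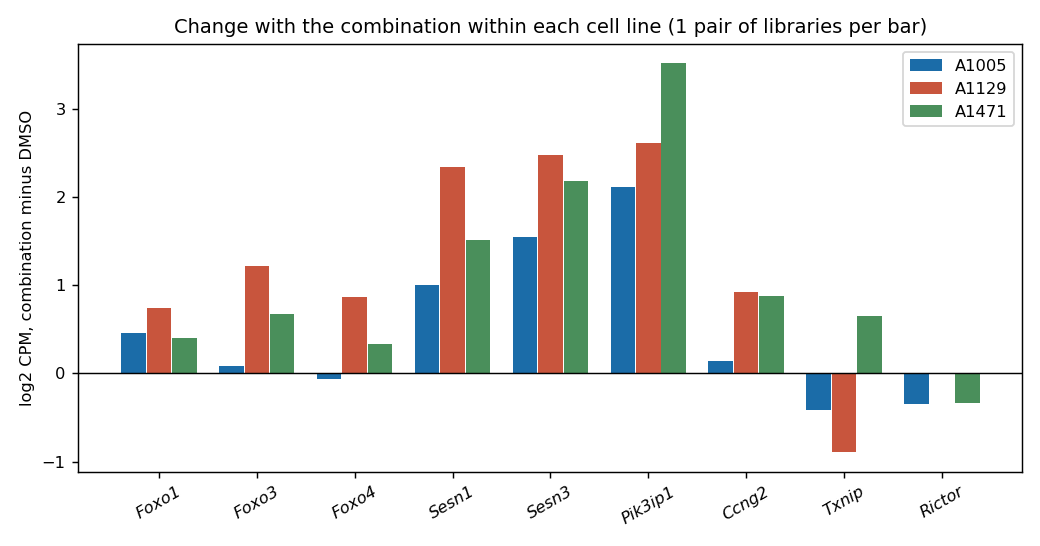
Log2 CPM with the combination minus log2 CPM with DMSO within each cell line, 1 bar per line and gene, each from 1 pair of libraries. A1005 has the smallest value for Foxo3 (0.08), Sesn1 (1.01), Sesn3 (1.55), Pik3ip1 (2.11) and Ccng2 (0.14), and Txnip points up in A1471 only.

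The 3 lines differed in how far the genes moved with the combination. Over the 9 genes, the median log2 change was 0.14 for A1005, 0.93 for A1129 and 0.67 for A1471. The combination was the highest of the 4 treatments for 5 of the 9 genes within A1005, 7 within A1129 and 8 within A1471, and Rictor was highest with Crizotinib in each line. Sesn1, Sesn3 and Pik3ip1 at least doubled in every line, with log2 changes of 1.01, 2.34 and 1.51 for Sesn1, of 1.55, 2.48 and 2.19 for Sesn3 and of 2.11, 2.61 and 3.51 for Pik3ip1. Foxo3 and Ccng2 changed by 0.08 and 0.14 in A1005, against 1.22 and 0.93 in A1129. The direction was the same in all 3 lines for 7 of the 9 genes, as it was for 66.7% of all genes tested. With 1 library per line and treatment, the difference between lines was not tested.

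A further list of 49 FoxO target genes was read in the same comparison, the combination against DMSO. Of these 41 were tested, 9 rose, 2 fell and 30 did not pass, so that 26.8% of the list passed against 14.4% of all genes tested (edgeR). With the block 24 of the 41 were higher and 6 lower, where 54.8% of all genes passed and 28.6% passed as higher. The median log2 fold change was 0.66, equal to that of the 9 genes, against 0.02 for all genes. The number that passed without the block was 4 without A1129 and 0 without A1471. These fits had fewer libraries, and the share of all genes that passed in them is not given here. The counts therefore do not tell a change of the list from a change over all genes.

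Fbxo32, a muscle-atrophy ubiquitin ligase and a classical FoxO target, was measured at 11.1, 1.97 and 6.08 CPM with DMSO in A1005, A1129 and A1471, and at 83.9, 68.6 and 122 CPM with the combination. Its log2 fold change was 3.84 ± 0.81 (SE, adjusted p = 0.0128), and all combination libraries lay above all DMSO libraries. Gadd45b, of a family of growth arrest and DNA damage genes, rose by 2.44 ± 0.32 on the log2 scale (adjusted p = 0.00129), from 8.23 ± 0.541 to 44.8 ± 10.6 CPM (SD, n = 3). Cited2, a coactivator-binding transcription regulator, rose by 2.09 ± 0.52 (adjusted p = 0.027), and Glul, glutamine synthetase, rose by 1.68 ± 0.41 (adjusted p = 0.0251). The other 5 that rose, named here after their values were seen, were the autophagy genes Map1lc3b (1.25), Atg14 (1.61), Ulk1 (1.38) and Pink1 (1.65), the last acting in mitophagy, and the pro-apoptotic Bcl2l11 (1.51). The genes that fell were Cdkn2d, a CDK inhibitor (-1.73 ± 0.28, adjusted p = 0.00401), and Eif4ebp1, a repressor of cap-dependent translation (-1.10 ± 0.19, adjusted p = 0.00479), although both are counted as genes that FoxO raises. Cdkn1b, the p27 gene, had a log2 fold change of 0.55, with an adjusted p of 0.311 without the block and of 0.127 with it.

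Genes listed here as lowered by active FoxO numbered 7, of which 6 were tested, 4 fell and 0 rose. Thus 66.7% of the list passed, against 14.4% of all genes tested in either direction (edgeR). With the block 6 fell and 0 rose, where 54.8% of all genes passed in either direction. The median log2 fold change of the list was -1.98 without the block. Ccnd1, cyclin D1, fell by 5.29 on the log2 scale, from 709, 1217 and 1060 CPM in A1005, A1129 and A1471 to 33.9, 17.1 and 25.5 CPM (SE 0.36, adjusted p = 4.59e-05). Plk1 (-2.35), Foxm1 (-1.90) and Ccne1 (-1.52), which act in the cell cycle, also fell. Proliferation markers moved in the same libraries: 18 of 20 fell (90%), 0 rose, and their median log2 fold change was -2.07. Of 14 ERK target genes, 12 fell (85.7%) and 0 rose, with a median of -2.85. The part of the fall in proliferation and in ERK target genes in the values of the FoxO targets was not tested.

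Among 44 genes of PI3K, AKT and mTOR signalling, 41 were tested, 6 rose and 1 fell, so that 17.1% of the list passed, near the 14.4% of all genes, and the median log2 fold change was -0.05. The number that passed was 1 without A1129 and 0 without A1471, in fits with fewer libraries. The share of all genes in those 2 fits is not given here, so a change over all genes cannot be told apart. With the block 23 of 41 passed, of which 13 were higher and 10 lower, where 54.8% of all genes passed. Irs1, an adaptor of the insulin and IGF1 receptors, rose by 2.94 ± 0.70 on the log2 scale (SE, adjusted p = 0.0219). Pik3r3 (2.48 ± 0.48) and Pik3r1 (1.95 ± 0.27), which encode regulatory subunits of PI3K, and Gab1 (1.82 ± 0.39), a docking protein downstream of Met, also rose. The others that rose, named after their values were seen, were Mtor (1.07) and Tsc1 (0.65), and Eif4e, the cap-binding factor, fell by 1.01.

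Of 30 regulators of FoxO proteins, 28 were tested, 2 rose, 5 fell and 21 did not pass, so that 25% of the list passed against 14.4% of all genes. The deacetylase Sirt2 (1.02 ± 0.13) and the acetyltransferase Crebbp (0.59 ± 0.15) rose on the log2 scale. Cdk1 (-2.30 ± 0.15), the ubiquitin ligase subunit Skp2 (-1.73 ± 0.29), the nuclear exporter Xpo1 (-1.35 ± 0.28) and Cdk2 (-1.09 ± 0.14) fell, as did the methyltransferase Prmt1 (-0.92), named after its value was seen. Of these, Cdk1 is also on the list of proliferation markers. Of 14 genes around Txnip and MondoA, 12 were tested, 0 rose and 2 fell (16.7%, near the 14.4% of all genes): Arrdc3 (-1.09 ± 0.31), an arrestin related to Txnip, and Txn1 (-0.88 ± 0.25), the thioredoxin that Txnip binds.

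**Figure D4:**
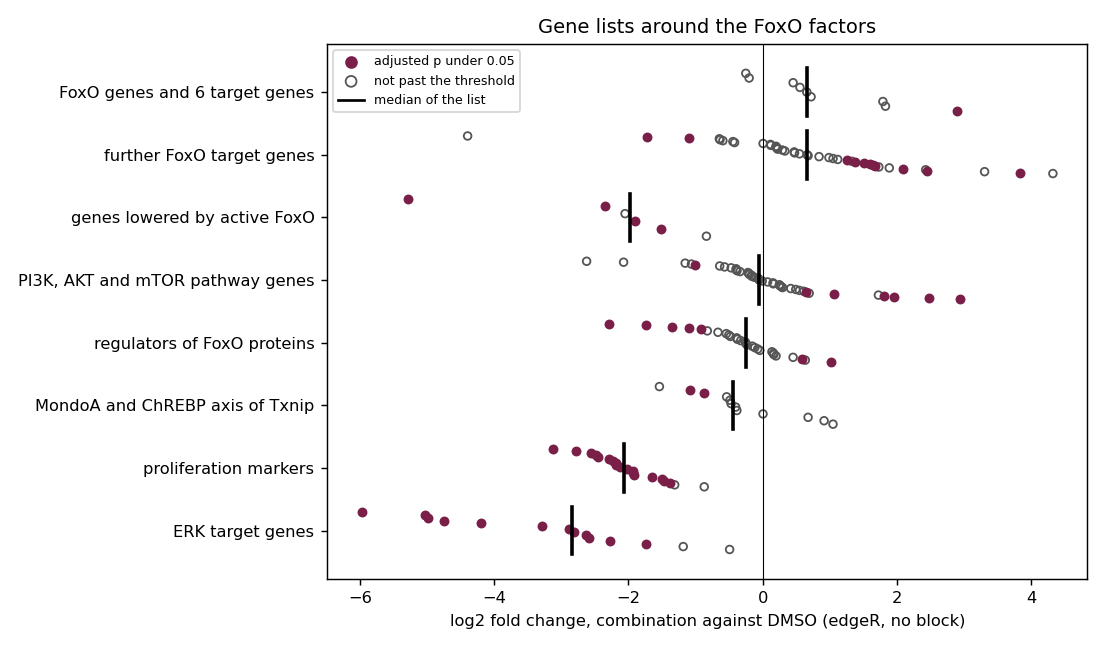
Log2 fold change of the combination against DMSO (horizontal axis, edgeR without a block, 3 against 3 libraries) for every tested gene of each list, 1 point per gene. Filled points passed an adjusted p of 0.05 and vertical bars are list medians, which stand at 0.66 for the 9 FoxO genes and for the further targets, at -0.05 for the PI3K, AKT and mTOR genes and at -2.85 for the ERK targets.

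The 9 genes were also compared with one another over the 12 libraries, after centring log2 CPM within each line, so that the points share lines and treatments. Pearson's r was 0.95 between Sesn1 and Sesn3, 0.95 between Sesn3 and Pik3ip1 and 0.94 between Foxo3 and Sesn1. Rictor ran against Pik3ip1 (-0.75) and Sesn3 (-0.69), and Txnip had values between -0.43 and 0.16 with the other 8. Among 9614 genes of sufficient level, the closest to Sesn1 were Ephb6 (0.994) and Dtx4 (0.993), to Sesn3 Slc15a2 (0.994) and Mxd4 (0.992), and to Pik3ip1 Calcoco1 (0.992) and Trappc12 (0.991). Those closest to Foxo3 were Gdap2 (0.982) and Stard13 (0.977), to Foxo1 Zfp950 (0.959) and D230025D16Rik (0.954), and to Foxo4 Bbs2 (0.966) and Pnpla8 (0.957). Ccng2 was followed most closely by Ghdc (0.980) and Mapk3 (0.978), Rictor by Nfat5 (0.986) and Rfx3 (0.957), and Txnip by Camk2g (0.958) and Itgb1 (0.901). These coefficients describe the 12 libraries and carry no test.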

How the data were processed

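The authors sequenced total RNA on a NextSeq500 instrument, aligned reads with STAR to mm10 and deposited raw counts per Ensembl gene, and bcl2fastq, STAR and HTSeq are named in the submitters' processing notes. Tool versions, the strand setting and the annotation release are not given in the sources used here. Treatment and line were taken from the labels. Low genes of the deposited counts were removed (filterByExpr, at least 10 counts, total of 15), the rest were scaled by TMM, and a quasi-likelihood fit over all 12 libraries was made in edgeR 4.0.16 (R 4.3.3), without a block because the study's analysis was unpaired. P-values were adjusted by Benjamini-Hochberg over the 13836 genes tested, at 0.05. CPM values used TMM-scaled library sizes, log2 CPM a prior count of 2, and standard errors were derived from log2 fold changes and F statistics.

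Libraries of the same line paired across treatments: deviations from treatment means correlated at 0.766 to 0.962 in 18 same-line pairs (mean 0.87) and at -0.42 on average in 36 pairs of different lines. Each line is 1 culture per treatment, so p-values without the block measure the spread between lines. Those with the block measure the spread that remains once each line's baseline level is removed. No 2 of the 12 libraries agreed within sampling noise.

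The 9 genes and the other lists were chosen with earlier results of these data known. Genes named from the lists are up to 4 per direction with the largest change among those that passed at an average log2 CPM of 1 or more, and for each of the 9 genes the 2 most alike genes at an average of 3 or more. Further exceptions are marked in the text. Alternatives were a line block, DESeq2 1.42.0, limma-voom (limma 3.58.1), other scalings and filters, fewer libraries, and a fold threshold of 1.5 (log2). The tests were checked on simulated counts. Python 3.11.15, pandas 2.3.3, numpy 2.4.6 and matplotlib 3.10.9 were used for tables and plots.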

Additional observations from a re-analysis of the deposited data

Results flagged for a closer look

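The effect of PD173074 differed with and without Crizotinib for 3 of the 9 genes, by the interaction term of the edgeR fit with the cell line as a block (quasi-likelihood test, Benjamini-Hochberg over all genes tested), a term that passed for 16.2% of all genes and for 5.46% as higher. The difference in log2 change was 1.92 for Pik3ip1 (adjusted p = 0.0321), 0.97 for Sesn3 (adjusted p = 0.0339) and 0.96 for Sesn1 (adjusted p = 0.0475), each in the same direction in 3 of 3 lines. Without the block the same term had adjusted p of 0.367, 0.995 and 0.885, and with the block it passed for none of the 9 genes without A1129 and without A1471. No group held enough libraries to look for outlying samples.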

How the results depend on the processing

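In edgeR with the cell line as a replicate block, the number of the 9 genes that passed was 7 against DMSO for the combination, 6 against Crizotinib, 5 against PD173074 and 3 for the departure from additivity, where 1, 1, 1 and 0 passed without it. It was 30 for the further FoxO targets and 23 for the PI3K, AKT and mTOR genes, where 11 and 7 passed without it. Of all genes, 54.8%, 53.4%, 39.8% and 16.2% passed in these comparisons with the block, and 14.4%, 13.2%, 4.77% and 0.918% without it. DESeq2 without the block gave 5, 4, 2 and 0 of the 9, and 17 and 11 for the lists. Of all genes it called 21.9%, 21.2%, 11.2% and 3.32%. DESeq2 with the block, added after seeing the data, gave 7, 6, 5 and 4 of the 9, 2 for PD173074 against DMSO, and 32 and 21 for the lists. The block without A1005 (replicate 1), also added later, gave 7, 7, 5 and 3 of the 9 and 33 and 21 for the lists. The block without A1129 (replicate 2) gave 4, 5, 3 and 0 of the 9 and 27 and 18 for the lists. Without A1471 (replicate 3) it gave 3, 4, 2 and 0 of the 9, and 28 and 16 for the lists. For the combination against DMSO, 50.3%, 40.8% and 36.8% of all genes passed with the block and without A1005, A1129 or A1471.

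Leaving out each line without a block gave 0 to 2 of the 9 for the combination against DMSO, 0 to 2 against Crizotinib, 0 to 0 against PD173074, 0 to 15 of the further targets and 0 to 7 of the PI3K, AKT and mTOR genes, with fewer samples in each fit. A minimum of 10 counts in every library gave 2 of the 9 for the combination against Crizotinib. Without a filter, and with only the groups compared, 0 passed against PD173074, and the latter gave 5 further targets. Requiring a log2 change of 1.5 or more in size left 4 PI3K, AKT and mTOR genes. For the counts of this paragraph, the share of all genes that passed is not given. They therefore do not tell a change of these genes from a change over all genes. The cause of these differences was not tested.

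Directions turned only for values that had not passed in the edgeR fit of all libraries without the block. Among 15 other settings, Txnip for the combination against Crizotinib passed in 1 and kept its direction in 14. With a line left out and no block, the log2 fold change of Txnip ran from -0.56 to 0.0072 for the combination against DMSO, from -0.58 to 0.055 against PD173074, and from -0.055 to 0.30 for PD173074 against DMSO. Sesn1 (-0.13 to 0.13) and Pik3ip1 (-0.0081 to 0.33) with Crizotinib, Ccng2 (-0.13 to 0.11) and Rictor (-0.078 to 0.036) with PD173074, and the departure of Foxo1 (-0.13 to 0.25) also crossed 0. With the block, Sesn1 with Crizotinib was -0.013 in edgeR and -0.018 in DESeq2. With the block and without A1005, Txnip was -0.092 for PD173074 against DMSO and 0.033 for the combination against PD173074. With the block and without A1129, Txnip was 0.16 for the combination against DMSO and 0.040 against Crizotinib, Sesn1 with Crizotinib was -0.12, Ccng2 with PD173074 was 0.11 and the departure of Foxo1 was -0.14. With the block and without A1471, Txnip with PD173074 was -0.12 and Rictor with PD173074 was 0.045. DESeq2's size factors and total counts alone turned no direction. The block changed no other call of the 9 genes. Each of the 9 genes had 98 or more counts in each library, and each treatment had 3 lines.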
